A study of Mus musculus with 6 samples.

Results

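The collagen chains are the protein-coding genes whose symbol is Col, a type number, the letter a and a chain number. By that rule the deposited table of 45777 genes from mouse epididymal white adipose tissue held 44 of them. Of these, 40 had at least 1 read, 35 passed the filter on low counts and entered the test, and 4 (Col2a1, Col9a1, Col9a2 and Col22a1) were listed at 0 in every library. The 6 mRNA libraries fall into 2 groups of 3, all from mice on a C57BL/6 background fasted for 24 h. The libraries labelled WT come from Pak4 flox/flox mice, whose Pak4 alleles are flanked by loxP sites. The libraries labelled KO come from Adipoq-Cre; Pak4 flox/flox mice, in which the adiponectin promoter drives the Cre recombinase in adipocytes and not in the other cells of the fat pad. The labels used here give no age. Nor do the labels say whether replicates come from different mice, and p-values therefore cover only library-to-library spread, which may be technical.

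Collagens are secreted as trimers of chains wound into a triple helix, and the chain types differ in what they build. Fibrillar collagens (types I, III and V) form the banded fibrils around adipocytes and vessels, and type V chains are built into fibrils of type I. Type IV chains form the sheet-like network of basement membranes, which wraps each adipocyte and capillary, and types XV and XVIII sit at that membrane. Type VI forms beaded microfilaments next to it and is abundant in fat, where loss of collagen VI is known to let adipocytes expand more freely. Type VIII is a short-chain collagen of vessel walls and of Descemet's membrane in the eye, and FACIT collagens decorate the surface of fibrils.

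Each library held 62854465 to 72005658 counts, and the collagen chains took 0.571% to 1.06% of them. Pak4, the targeted gene, stood at 5.53, 5.03 and 5.84 CPM under the label WT and at 12.1, 10.7 and 9.06 CPM under the label KO (0.96 ± 0.14, adjusted p 0.0898 in edgeR). DESeq2 called it higher under the label KO. It thus goes against the labels, whether labels were exchanged was not tested, and every direction below is between libraries by label. CPM are counts per 1000000 after TMM scaling. A fold change is the log2 ratio of label KO to label WT, ± SE, from edgeR's quasi-likelihood test on all 17820 tested genes with Benjamini-Hochberg adjustment. A chain is called at an adjusted p under 0.05. The labels name adipocytes as the cell type, but the protocol describes whole tissue, and markers of other cells were present. Summed over 10 endothelial markers the level was 265 to 351 CPM under label WT and 221 to 238 CPM under label KO, without overlap, and over 12 progenitor and fibroblast markers it was 2182 to 2723 and 1814 to 2450 CPM, with overlap. In whole tissue, fewer cells of a type and less RNA per cell cannot be told apart.

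Stretches of genome before 4 of these genes are shown because the results turn on them: Col8a1 was the chain called, Col8a2 encodes its partner chain, and Col6a2 and Col5a3 had the most negative fold changes of their type among abundant chains. They come from RefSeq in GRCm38.p6 (the assembly of mm10), run 5′ to 3′ on the strand of the gene and stop before any annotated transcript. Capitals mark matches, on either strand, to the GC box (GGGCGG), the CCAAT box (CCAAT) and the SMAD element (CAGACA). Col8a1 is at chr16:57754738-57754987 on the minus strand, Col8a2 at chr4:126286544-126286792 on the plus strand, Col6a2 at chr10:76623631-76623880 on the minus strand and Col5a3 at chr9:20815118-20815317 on the minus strand.
Col8a1: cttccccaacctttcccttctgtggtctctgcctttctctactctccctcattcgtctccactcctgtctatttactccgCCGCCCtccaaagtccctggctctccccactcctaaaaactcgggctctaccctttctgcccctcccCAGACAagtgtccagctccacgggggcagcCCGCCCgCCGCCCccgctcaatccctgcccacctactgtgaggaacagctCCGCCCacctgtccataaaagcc
Col8a2: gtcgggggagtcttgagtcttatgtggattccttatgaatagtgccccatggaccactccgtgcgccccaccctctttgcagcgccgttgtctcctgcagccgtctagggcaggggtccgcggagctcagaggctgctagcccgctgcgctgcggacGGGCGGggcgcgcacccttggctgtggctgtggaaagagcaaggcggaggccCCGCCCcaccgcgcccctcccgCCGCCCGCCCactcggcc
Col6a2: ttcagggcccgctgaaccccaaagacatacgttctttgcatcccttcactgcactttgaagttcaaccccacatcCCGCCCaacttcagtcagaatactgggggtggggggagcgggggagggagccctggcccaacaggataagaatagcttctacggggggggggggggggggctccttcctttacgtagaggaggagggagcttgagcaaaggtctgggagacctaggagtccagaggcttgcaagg
Col5a3: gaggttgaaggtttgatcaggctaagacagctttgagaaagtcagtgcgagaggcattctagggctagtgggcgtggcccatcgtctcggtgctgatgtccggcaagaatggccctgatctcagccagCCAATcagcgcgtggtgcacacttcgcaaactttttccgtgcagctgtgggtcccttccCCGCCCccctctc
The upstream windows of Col8a1 and Col8a2 each held 4 GC boxes. Col6a2 has a second window of 250 bases (76623405 to 76623654), not shown because 226 of them lie in exons. It held 3 GC boxes, against 1 in the window shown. The full window of Col5a3 held 2 GC boxes, of which 1 lies in the stretch shown. Scanned over 250 bases before the start, 21 of 35 collagen genes with a RefSeq promoter entry (60.0%) held a GC box, against 35.4% of the 27025 genes with an entry. Exons were not removed from the windows scanned. For Col4a1, Col4a2, Col6a4 and Col20a1 all 250 bases are exonic, and the windows of Col15a1 and Col27a1 lie inside the RefSeq gene. The collagen windows were also richer in G and C, with a median of 59.0% against 52.4%. The CCAAT box was in 37.1% of collagen genes and 37.5% of all genes, and the SMAD element in 25.7% and 19.3%. The TATA box (TATAAA) was in 14.3% of both. The TEAD site (GGAATG) was in 11.4% and 14.4%, and the AP-1 site (TGANTCA), which was in the window of Col6a1 alone among collagen genes, in 2.86% and 7.82%. No test was made of these shares, and a match describes the letters only.

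Per unit length, collagen RNA was dominated by few chains. The deposited TPM, which correct for transcript length, ranked Col3a1 first at 584 ± 82.7 (SD, n = 3) under label WT and 560 ± 66.9 under label KO. Col4a1, Col6a1, Col1a2 and Col6a2 followed in the mean over all 6 libraries, and these 5 chains made 63.5% of the collagen TPM. In the libraries labelled WT the next ranks after Col3a1 were Col4a1 (462 ± 95.7 TPM), Col6a1 (355 ± 73.6), Col4a2 (324 ± 81.1) and Col6a2 (320 ± 91.8), of which the last 3 lay within their spread of each other. In the libraries labelled KO the second rank was Col1a2 (256 ± 17.4 TPM), ahead of Col4a1 (217 ± 72.4), and that difference was within the spread of Col4a1. At the low end, 5 chains had reads but too few to test: Col11a1, Col24a1, Col10a1, Col19a1 and Col25a1, with 5 to 22 counts over all 6 libraries. Col2a1 and the Col9 chains Col9a1 and Col9a2, which belong to cartilage, were among those listed at 0.

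The summed collagen TPM was lower in every library labelled KO. It was 2601, 3563 and 3409 in WT 1, WT 2 and WT 3 and 2151, 2142 and 1787 in KO 1, KO 2 and KO 3. The group means were 3191 ± 517 and 2027 ± 207 (SD, n = 3). The classes did not share in this evenly. Fibrillar TPM overlapped between labels, at 1136, 1325 and 1494 against 1024, 1182 and 1055. Collagen IV TPM did not overlap, at 630, 978 and 814 against 478, 353 and 244. Collagen VI TPM did not overlap either, at 550, 880 and 749 against 411, 389 and 334. As a share of collagen TPM, the fibrillar class was 43.7%, 37.2% and 43.8% under label WT and 47.6%, 55.2% and 59.0% under label KO. Collagen IV made 25.2% ± 1.97 and 17.5% ± 4.38 (SD, n = 3) of the total. The other classes were smaller: the basement membrane associated class had 258 ± 42.7 and 144 ± 41.1 TPM, the FACIT class 63.2 ± 5.79 and 50.1 ± 5.23, and the short-chain class 13.1 ± 1.45 and 6.07 ± 0.91. None of these smaller classes overlapped between labels either, though FACIT came close, at 58.4 TPM in WT 1 and 56.1 TPM in KO 2. As shares of collagen TPM, however, all of them overlapped. The transmembrane and other chains together had 3.75 ± 0.61 and 3.06 ± 0.65 TPM, with overlap. These sums are descriptions without a test.

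**Figure D1:**
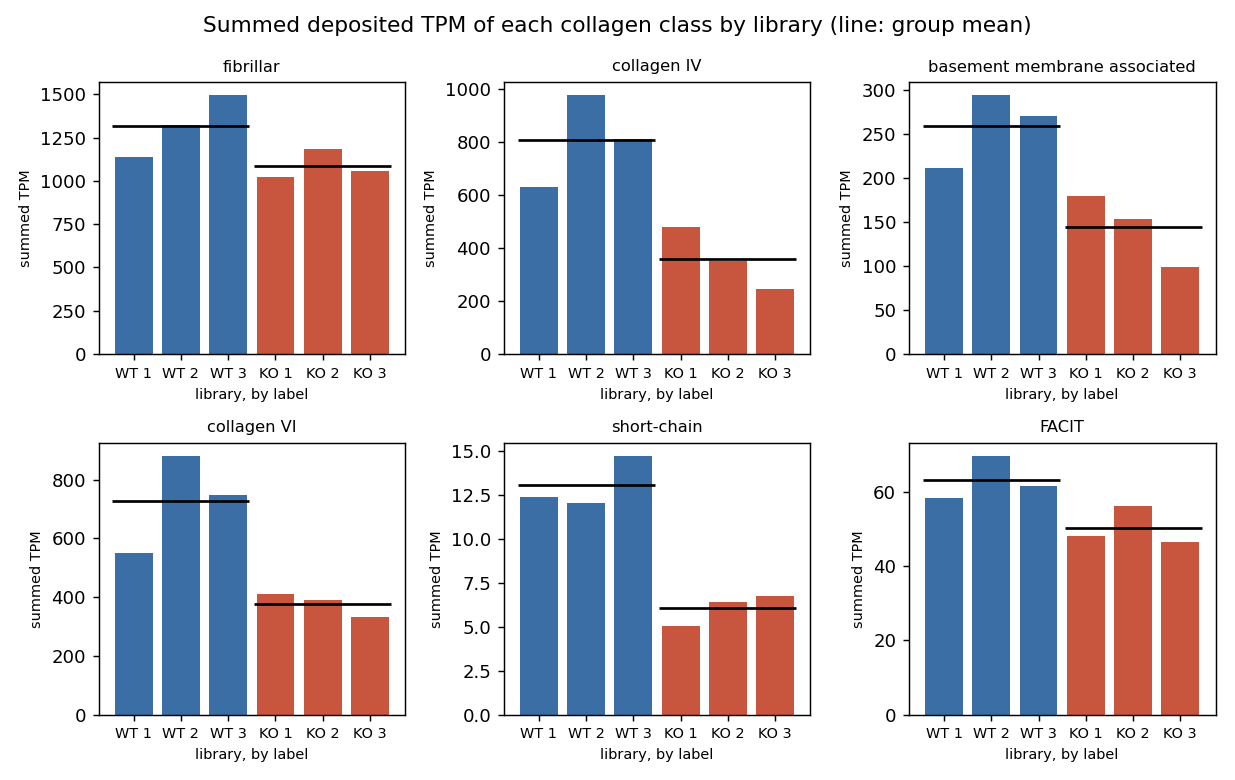
Summed deposited TPM of 6 collagen classes (y axis, each panel with its own scale from 0) in each library (x axis, blue labelled WT, red labelled KO), with the group mean as a line. The fibrillar panel overlaps between labels, while collagen IV, collagen VI and the basement membrane associated, short-chain and FACIT classes are lower in all 3 libraries labelled KO, FACIT narrowly.

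Among the 35 tested chains, 1 was called lower (Col8a1) and 0 higher. Over all tested genes 0.0168% were called lower and 0% higher. At an unadjusted p under 0.05 there were 14 lower and 2 higher chains, where 9.71% of all genes were lower and 9.66% higher. The groups did not overlap in CPM, with all libraries labelled KO lower, for 14 of the 35 chains, and with all of them higher for 1, beside 12.5% and 13.7% of all genes (26.2% in either direction). The median fold change was -0.38 over the chains and 0.02 over all tested genes, and 25 of 35 chains lay below 0, against 47.9% of all genes. The call moved with the test and with single libraries. In edgeR 0 chains were called without the library labelled WT 2, WT 3, KO 2 or KO 3. With the replicate number as a block, 0 were called as well. In each of these fits at most 2 of all tested genes were called. DESeq2 called 11 chains lower and 1 higher, beside 3.96% and 2.66% of the genes it tested, and edgeR without the library labelled KO 1 called 8 lower and 0 higher, beside 3.49% and 2.08%. In edgeR with all libraries, the chains other than Col8a1 had adjusted p of 0.119 or more, and below they are given as values.

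**Figure D2:**
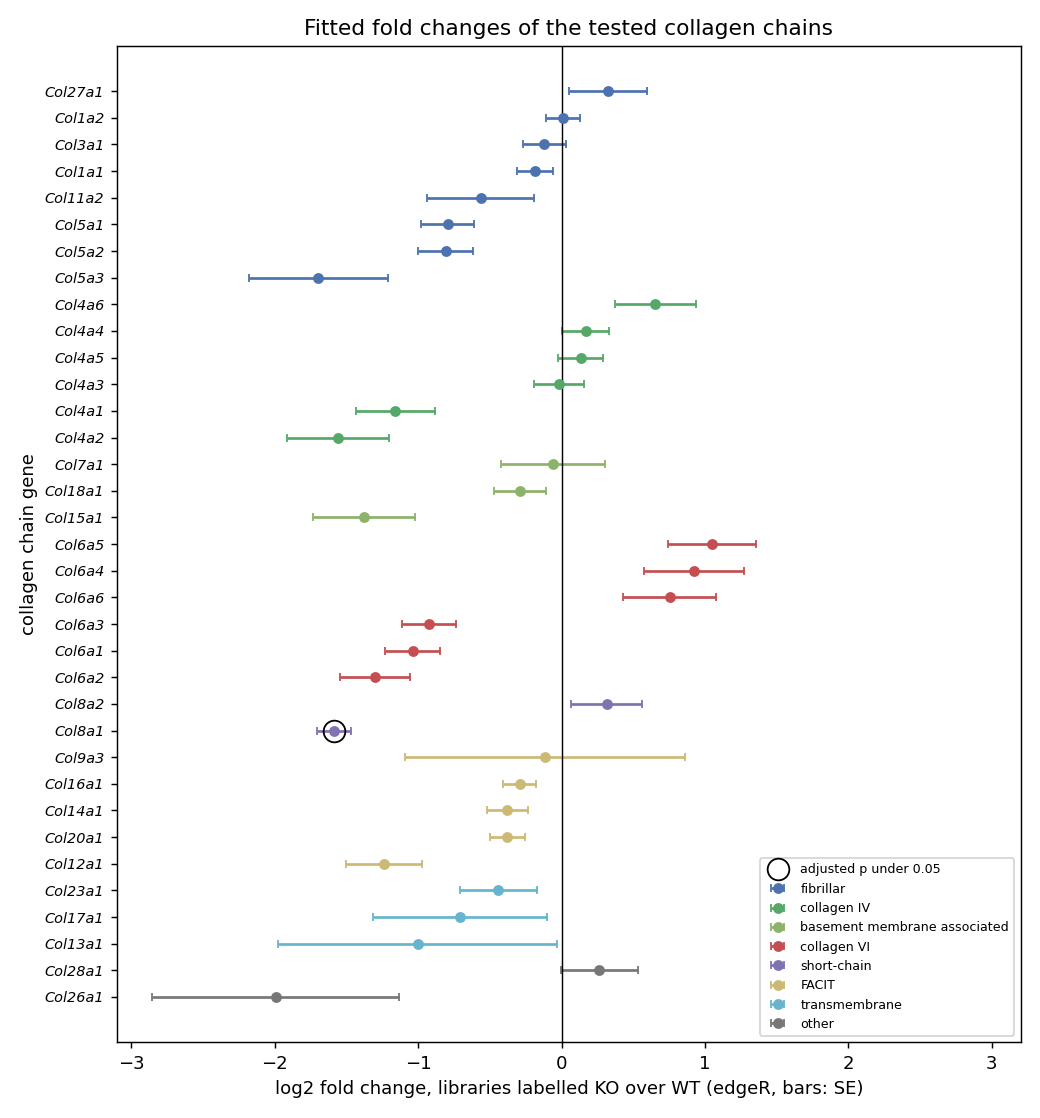
Fitted log2 fold change (x axis, libraries labelled KO over WT; bars are SE) of the 35 tested collagen chains (y axis), coloured by class, with a ring around the chain whose adjusted p was under 0.05. Col8a1 carries the ring at -1.58, and within collagen IV and collagen VI chains lie on both sides of 0.

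The short-chain class split between its chains. Col8a1 (chromosome 16, 57624256 to 57754737, minus strand) had 1788, 2141, 2101 counts in WT 1, WT 2 and WT 3 and 620, 808 and 819 counts in KO 1, KO 2 and KO 3. Scaled, this was 29.2, 31.9 and 34.3 CPM against 9.22, 11.6 and 11.0 CPM. The lowest library labelled WT was thus far above the highest labelled KO. Col8a1 fell by 1.58 ± 0.12 on the log2 scale (adjusted p 0.00751, edgeR's quasi-likelihood test), which is 3.00-fold. Its SE was the smallest relative to the change among all the chains. Col8a2 (chromosome 4, 126286794 to 126314330, plus strand), the other type VIII chain, had 4.54, 2.91 and 4.45 CPM against 3.81, 4.65 and 6.32 CPM. Its groups overlapped, with a log2 fold change of 0.31 ± 0.25. The ratio of Col8a1 to Col8a2 TPM was 5.45, 10.7 and 6.54 for WT 1 to WT 3 and 2.06, 2.35 and 1.47 for KO 1 to KO 3. Col10a1, the short-chain collagen of growth plate cartilage, had 18 counts over all libraries and was not tested. Col8a1 did not pass (adjusted p 0.0573 to 0.0967 in edgeR) without the library labelled WT 2, WT 3, KO 2 or KO 3, while its log2 fold change stayed between -1.65 and -1.46 over all alternatives.

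Collagen VI divided into its classical chains, lower in the libraries labelled KO, and its later-described chains, with values above 0. Col6a1 (chromosome 10, 76708792 to 76726044) had 602, 957 and 762 CPM against 420, 393 and 316 CPM, a log2 fold change of -1.04 ± 0.19. Col6a2 (chromosome 10, 76595756 to 76623630), whose chain joins that of Col6a1 in each trimer, had 478, 894 and 651 CPM against 327, 270 and 223 CPM (-1.30 ± 0.25). Col6a3 (chromosome 1, 90766860 to 90844001), which also yields the signalling fragment endotrophin, had 118, 179 and 157 CPM against 97.5, 69.8 and 72.2 CPM (-0.92 ± 0.19). None of these 3 chains overlapped between labels, with label KO lower, as for 12.5% of all tested genes. WT 2 was the highest library for each. The other 3 genes lie side by side on the minus strand of chromosome 9, and their chains can take the place of the alpha 3 chain. Col6a5 (chromosome 9, 105856070 to 105962463) had 92.6, 62.5 and 122 CPM against 141, 170 and 263 CPM, without overlap (1.05 ± 0.31). Col6a4 had 0.96, 0.63 and 1.08 CPM against 1.06, 1.69 and 2.31 CPM, and KO 1 overlapped the libraries labelled WT (0.93 ± 0.35). Col6a6 stood at 0.75 ± 0.33, from 9.33 to 17.7 CPM and from 17.2 to 34.4 CPM. The longest transcripts of Col6a5 and Col6a6 share a stretch of 572 bases that is 96.9% identical, so part of their counts is uncertain. The ratio of Col6a3 to Col6a1 TPM overlapped between labels, at 0.086, 0.078 and 0.087 against 0.103, 0.077 and 0.101. The ratio of Col6a5 to Col6a3 TPM was 0.77, 0.36 and 0.79 for WT 1 to WT 3 and 1.40, 2.39 and 3.54 for KO 1 to KO 3. Collagen VI thus had 3 tested chains below 0 and 3 above, with a class median of -0.09 that became 0.03 when counts were scaled by library size alone. Adjusted p ran from 0.119 for Col6a1 and Col6a2 to 0.266 for Col6a6 in edgeR.

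Collagen IV split by gene pair. The 6 genes form 3 head-to-head pairs, Col4a1 with Col4a2 on chromosome 8, Col4a4 with Col4a3 on chromosome 1 and Col4a6 with Col4a5 on chromosome X. Col4a1 (chromosome 8, 11198423 to 11312889) had 1326, 2100 and 1601 CPM against 1009, 737 and 504 CPM (-1.16 ± 0.28). Col4a2 (chromosome 8, 11312805 to 11449287), its partner in the common basement membrane trimer, had 846, 1474 and 1114 CPM against 584, 344 and 238 CPM (-1.56 ± 0.35). For both chains the labels did not overlap, label KO being lower, as for 12.5% of all tested genes, and KO 1 was the nearest to WT. The endothelial marker sum given above was likewise lower under label KO without overlap, and its part in these values was not tested. Their annotated exons overlap by 22 bases at the starts, which is 0.33% of the exonic bases of Col4a2. The ratio of Col4a2 to Col4a1 TPM was 0.65, 0.72 and 0.71 against 0.59, 0.48 and 0.48, without overlap. The other pairs, whose products are restricted to some basement membranes, were at 21.3 ± 3.91 and 26.9 ± 5.74 TPM in sum (SD, n = 3), with overlap. Col4a3, Col4a4, Col4a5 and Col4a6 had log2 fold changes of -0.02 ± 0.17, 0.17 ± 0.16, 0.13 ± 0.16 and 0.65 ± 0.28.

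Chains associated with basement membranes differed from each other. Col15a1 (chromosome 4, 47207655 to 47313167), a proteoglycan-type collagen that links the membrane to fibrils, had 382, 534 and 483 CPM against 263, 181 and 93.3 CPM, without overlap (-1.38 ± 0.36). Col18a1 (chromosome 10, 77052178 to 77166530), the source of endostatin, had 269, 379 and 287 CPM against 291, 271 and 203 CPM, with overlap (-0.29 ± 0.18). The Col15a1 to Col18a1 TPM ratio was 1.68, 1.55 and 1.80 for WT 1 to WT 3 and 1.10, 0.79 and 0.50 for KO 1 to KO 3. Col7a1, the anchoring fibril collagen, was near the limit of detection at 0.37 to 0.90 CPM over the 6 libraries (-0.06 ± 0.36).

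**Figure D3:**
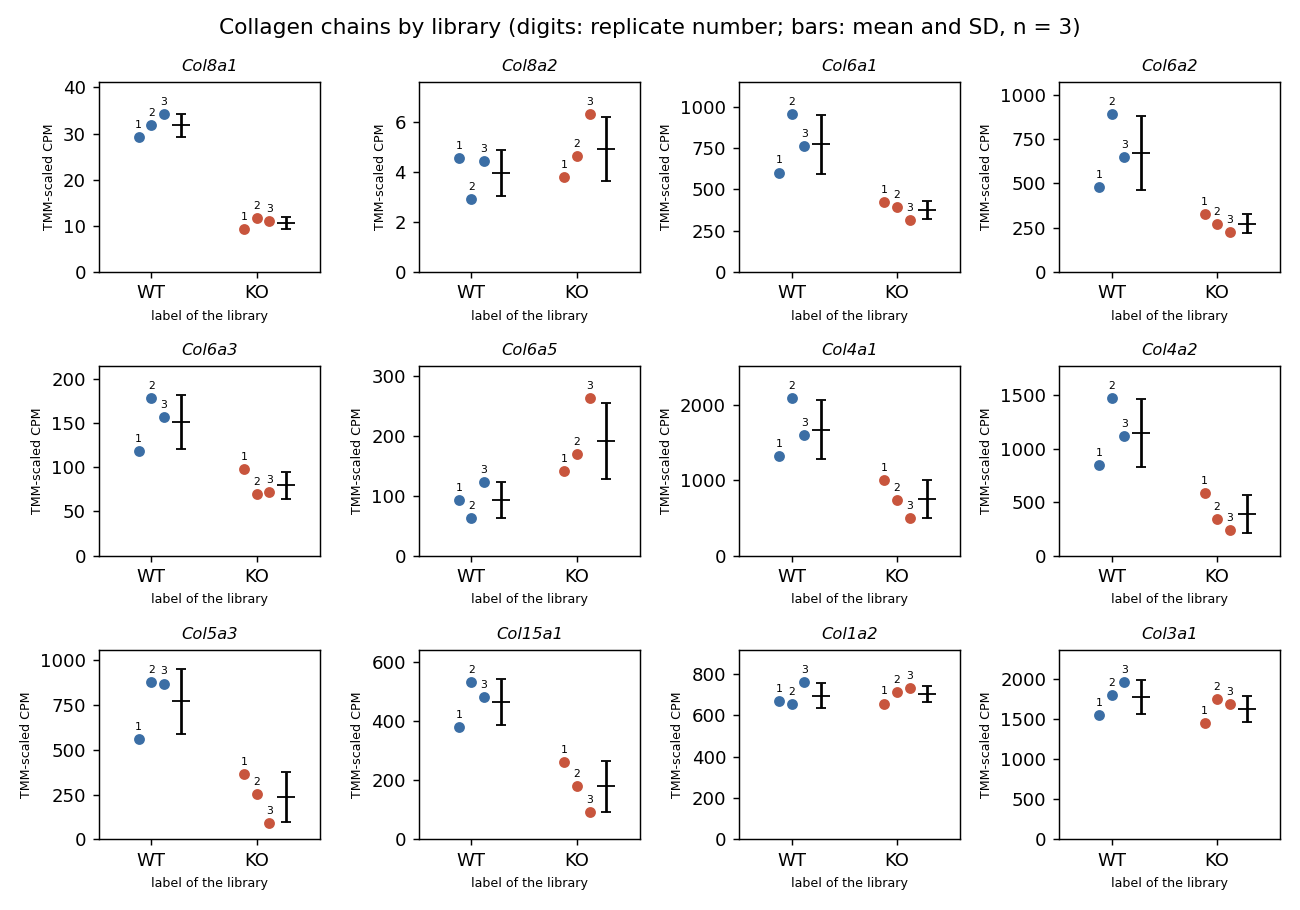
TMM-scaled CPM (y axis, from 0) of 12 collagen chains in the libraries labelled WT (blue) and KO (red), with digits for the replicate number and the mean ± SD of n = 3 beside the points. Col8a1 is tight within each label, whereas Col4a1, Col4a2, Col5a3 and Col15a1 spread widely among the libraries labelled KO, with KO 1 nearest to WT.

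Fibrillar chains divided by type. Col3a1 (chromosome 1, 45311538 to 45349706), the type III chain of reticular fibres, had 1546, 1802 and 1966 CPM against 1445, 1752 and 1690 CPM. Col1a2 (chromosome 6, 4505618 to 4541543), the alpha 2 chain of type I, had 671, 653 and 763 CPM against 657, 715 and 731 CPM. Both overlapped between labels, with log2 fold changes of -0.12 ± 0.15 and 0.01 ± 0.12, and the sign of each changed under some alternatives. Col1a1, its alpha 1 partner, stood at -0.18 ± 0.13. The Col1a1 to Col1a2 TPM ratio was 0.51, 0.55 and 0.53 for WT 1 to WT 3 and 0.45, 0.44 and 0.50 for KO 1 to KO 3. The type V chains lay lower. Col5a1 (chromosome 2, 27886381 to 28039510), which starts fibril assembly, had 177, 287 and 201 CPM against 142, 127 and 114 CPM (-0.79 ± 0.19). Col5a2 (chromosome 1, 45374331 to 45503282), which lies tail to tail with Col3a1, had 232, 370 and 273 CPM against 167, 190 and 142 CPM (-0.81 ± 0.19). Col5a3 (chromosome 9, 20770050 to 20815117) had 559, 881 and 870 CPM against 366, 255 and 91.1 CPM (-1.70 ± 0.48). None of the 3 type V chains overlapped between labels, with label KO lower, as for 12.5% of all tested genes. The adjusted p of these chains ran from 0.145 to 0.170 in edgeR. Among the libraries labelled KO, Col5a3 was highest in KO 1 and lowest in KO 3, far more spread than Col5a1. The ratio of Col5a3 to Col5a1 TPM was 4.27, 4.15 and 5.88 against 3.50, 2.72 and 1.08. That of Col5a2 to Col5a1 overlapped between labels, at 1.64, 1.61 and 1.70 against 1.48, 1.87 and 1.55. Of the remaining fibrillar chains Col11a2 and Col27a1 were tested, at -0.56 ± 0.37 and 0.32 ± 0.27, with at most 2.01 CPM in any library.

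**Figure D4:**
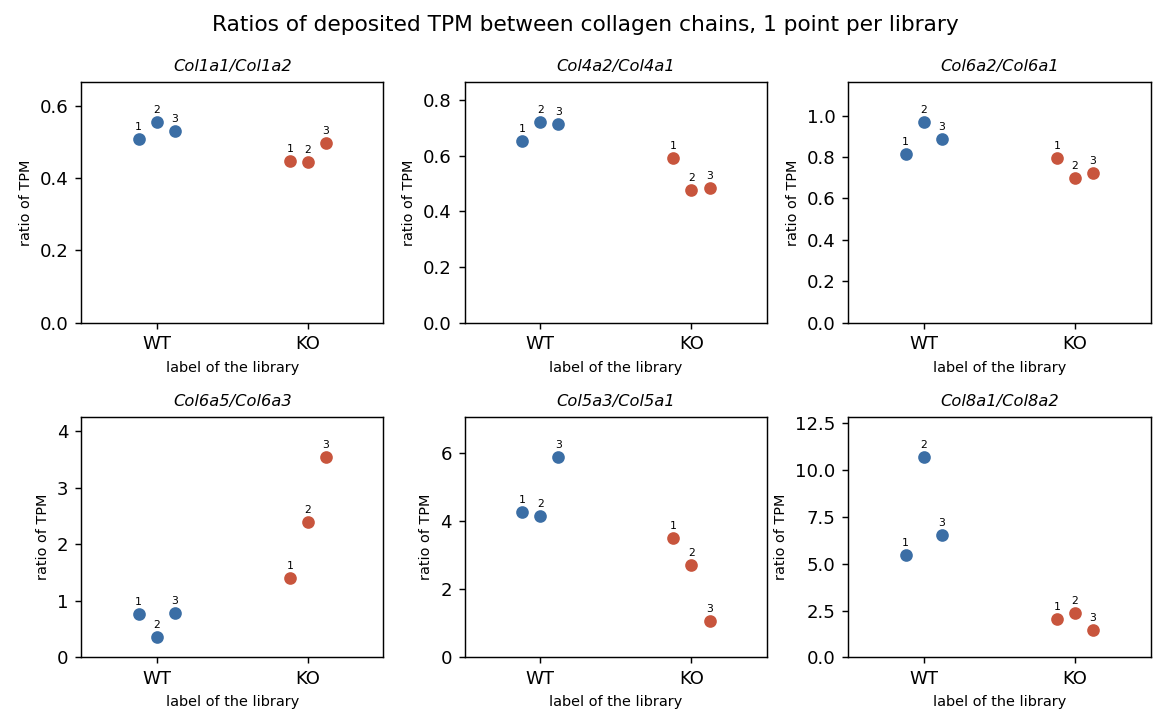
Ratio of deposited TPM between 2 collagen chains (y axis, from 0) for 6 pairs, 1 point per library, blue labelled WT and red labelled KO, with digits for the replicate number. The Col8a1/Col8a2 ratio is 5.45 or more in the libraries labelled WT and 2.35 or less in those labelled KO, and the Col6a5/Col6a3 ratio goes the other way.

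All 5 tested FACIT chains lay below 0. Col12a1 (chromosome 9, 79598987 to 79721141), a collagen of tissues under tension, had 23.3, 28.3 and 27.9 CPM against 16.2, 9.93 and 7.54 CPM, without overlap (-1.24 ± 0.27). Col14a1 (chromosome 15, 55307644 to 55520803), which limits fibril diameter, had 134, 164 and 125 CPM against 97.8, 127 and 101 CPM, with KO 2 inside the range labelled WT (-0.38 ± 0.15). Col16a1 (chromosome 4, 130047817 to 130099277) had 42.0, 54.6 and 49.2 CPM against 41.8, 37.1 and 40.1 CPM (-0.29 ± 0.11). The gap between labels for Col16a1 was narrow, since WT 1 and KO 1 nearly met. Col20a1 (chromosome 2, 180983323 to 181017545) was low but even, at 6.04, 6.13 and 6.64 CPM against 5.10, 4.82 and 4.55 CPM (-0.38 ± 0.12). Col9a3 had at most 0.35 CPM, and 6.07% of its exonic bases overlap Tcfl5 on the other strand. The sign of Col9a3, like those of Col3a1, Col4a3 and Col7a1, changed when counts were scaled by library size alone. The transmembrane chains Col13a1, Col17a1 and Col23a1 stood at -1.002 ± 0.97, -0.71 ± 0.60 and -0.44 ± 0.27, of which Col23a1 alone exceeded 1 CPM. Col26a1 and Col28a1 stood at -1.99 ± 0.86 and 0.26 ± 0.27, and Col26a1 had at most 0.39 CPM in any library.

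The libraries at the extremes were often the same. Of the 14 chains lower at an unadjusted p under 0.05, WT 2 was the highest library for 12 and KO 3 the lowest for 10, and KO 1 was the library labelled KO nearest to the WT mean for 11. For Col6a4 and Col6a5, the 2 higher chains, WT 2 was the lowest library and KO 3 the highest. Rgs5, a pericyte gene (-0.77 ± 0.14), and Cldn5, a tight junction gene of endothelium (-0.998 ± 0.19), were also lower in every library labelled KO. Each had the smallest p of its list, and 12.5% of all tested genes were likewise lower in every library labelled KO. Of 10 endothelial markers 9 lay below 0 (median -0.43) and of 10 smooth muscle and pericyte markers 8 did (median -0.22), the latter summing to 921 to 2302 CPM and 669 to 1179 CPM, with overlap. Progenitor and fibroblast markers had a median of 0.01, with Pdgfra at 0.54 ± 0.14 and Dpt at -0.60 ± 0.17. Mature adipocyte markers summed to 46742 to 52938 CPM and 48295 to 53833 CPM, with overlap (median -0.16). Of these 7 lay below 0, among them Lep (-1.14 ± 0.49) and Cidec (-0.46 ± 0.21). The 3 above 0 included Pparg (0.61 ± 0.14) and Cfd (1.02 ± 0.32). Mesothelial markers lay above 0 in 9 of 10 (median 0.53) and macrophage markers in 10 of 10 (median 0.31). In these lists Wt1 (1.14 ± 0.29) and Msr1 (0.66 ± 0.10) had the smallest p. Both were higher in every library labelled KO, as 13.7% of all tested genes were. Skeletal muscle markers summed to 82.1 to 584 CPM and 13.9 to 155 CPM, with overlap, and these sums were mostly Acta1. Ckm, Mylpf, Myh4 and Tnnt3 had at most 0.32 CPM in any library, and Actn3 stood at 1.19 ± 0.28. Of 6 epididymal epithelium markers Lcn5, Defb42 and Cst8 were at 0 and the sum was at most 0.39 CPM. No listed marker was called in edgeR or limma. DESeq2 called 9 of the 74 lower and 9 higher, beside 3.96% and 2.66% of all the genes it tested. The lower ones were 5 of 10 endothelial, 3 of 10 smooth muscle and pericyte, and 1 of 12 progenitor and fibroblast markers. The higher ones were 3 macrophage, 2 mesothelial, 2 mature adipocyte, 1 progenitor and fibroblast and 1 skeletal muscle marker. The part of these markers in the collagen values was not tested.

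Genes that act on collagen were mixed. In edgeR and limma 0 were called among the 5 lists below, beside the same 0.0168% and 0% of all genes in edgeR, and counts at an unadjusted p under 0.05 stand beside 9.71% lower and 9.66% higher. Of 19 tested genes for collagen hydroxylation, folding and export, 8 were lower and 1 higher at that p (median -0.20), and DESeq2 called 4 lower and 1 higher (all genes 3.96% and 2.66%). Sparc, which encodes a collagen-binding chaperone of the matrix, had 5668, 10598 and 6980 CPM against 4320, 3832 and 2420 CPM (-1.14 ± 0.30). Plod3, a lysyl hydroxylase, stood at -0.68 ± 0.20, P4ha2, a prolyl hydroxylase subunit, at -0.56 ± 0.16 and P3h4, a partner of collagen-modifying hydroxylases, at 0.56 ± 0.15. Of 13 genes for trimming and cross-linking, 5 were lower and 1 higher (median -0.19), and DESeq2 called 3 lower and 0 higher (all genes 3.96% and 2.66%). Lox, the lysyl oxidase that cross-links fibrils, had 162, 296 and 214 CPM against 137, 87.6 and 95.2 CPM (-1.07 ± 0.25), and Adamts2, which removes the N-terminal propeptide, stood at -0.50 ± 0.14. Both were lower in every library labelled KO, as were Tll2, a tolloid protease (-1.48 ± 0.41), and Loxl2, a lysyl oxidase relative (-0.33 ± 0.11). These genes were picked for the smallest p of their list, and 12.5% of all tested genes were likewise lower in every library labelled KO.

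Proteins on the fibril, receptors and proteases had values on both sides of 0. Of 8 small proteoglycans that bind fibrils, 3 were lower and 2 higher at an unadjusted p under 0.05 (median 0.15), and DESeq2 called 2 lower and 1 higher (all genes 3.96% and 2.66%). Dcn, which encodes decorin, had 1604, 1365 and 1466 CPM against 1690, 2644 and 2877 CPM (0.70 ± 0.21), while Prelp stood at -1.36 ± 0.40, Bgn, which encodes biglycan, at -0.48 ± 0.13 and Aspn at -0.78 ± 0.24. Of 12 collagen receptors, 4 were lower and 3 higher (median 0.08), and DESeq2 called 2 lower and 1 higher (all genes 3.96% and 2.66%). Itga1, the integrin chain that binds collagen IV, had 39.7, 57.2 and 59.2 CPM against 37.9, 20.6 and 20.7 CPM (-0.98 ± 0.28), and Cspg4, a pericyte proteoglycan that binds collagen VI, stood at -1.19 ± 0.42. On the other side Ddr2, a receptor kinase for fibrillar collagen, stood at 0.29 ± 0.11 and Antxr1, a membrane receptor that binds collagen, at 0.62 ± 0.17. Of 9 tested genes for collagen breakdown, 1 was lower and 3 higher (median 0.07), and DESeq2 called 0 lower and 3 higher (all genes 3.96% and 2.66%). The 3 higher ones were Mmp14, a membrane collagenase (0.52 ± 0.15), Mmp9, a gelatinase (1.00 ± 0.30), and Timp2, a protease inhibitor (0.53 ± 0.16), each higher in every library labelled KO, and the lower one was Fap, a fibroblast protease (-0.48 ± 0.19). They too were picked for the smallest p of their list, and 13.7% of all tested genes were higher in every library labelled KO.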

How the data were processed

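Whole epididymal fat was kept in RNAlater, extracted with Trizol and sequenced with a stranded mRNA kit, per the labels' protocols. Per the submitters' processing notes, the build was mm10 and the tools included HISAT2 2.1.0, StringTie 2.1.3b and Bowtie2 2.3.4.1, with no role or order. The use of strand and of multiply matching reads in counting is not given in the sources at hand. Per the file headers, the authors deposited read counts, FPKM and TPM per gene and library. The deposited counts are whole numbers without normalization and entered every test. The deposited TPM were used for levels between genes, and the deposited FPKM, scaled by TMM factors, as their alternative.

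Libraries were grouped by title. The filter was filterByExpr (count 10, total 15), and counts were scaled by TMM and fitted with edgeR 4.0.16 in R 4.3.3 (robust glmQLFit, glmQLFTest, two-sided, label as the only term, threshold 0.05). Tested on simulated data for this comparison (17820 genes, 200 changed), the fit recovered 64% of 2-fold and 80% of 3-fold changes. Whether these shares hold for the deposited libraries was not tested. In the deposited libraries the fit called 3 of 17820 genes. It left Col4a2 and Col5a3 uncalled at log2 fold changes of -1.56 and -1.70 (label KO over label WT). Exact permutation tests of 3 against 3 libraries cannot go below 0.1, so ratios and sums carry no test. No 2 libraries of a group agreed within sampling noise (chi-square per degree of freedom of 50.7 or more). Alternatives were DESeq2 1.42.0, limma 3.58.1 (voom), other scalings and filters, a replicate block and leaving out each library. All 44 gene identifiers matched RefSeq GRCm38.p6, and exons and strands came from GENCODE. Near-identical stretches (at least 95% over at least 100 bases) were sought with BLAST 2.17.0.

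The members, classes and lists were chosen with earlier results of these data known. Values in every library are given for chains called, chains with an unadjusted p under 0.05 and the 2 most abundant of the 6 main classes. Other genes on lists are up to 4 with the smallest p. Pooled sums, chain ratios, the other chains named and the 4 sequences were chosen after values were seen. For the ratios, no share of other gene pairs without overlap was computed.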

Additional observations from a re-analysis of the deposited data

How the results depend on the processing

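The count of chains called lower was 1 and became 11 with DESeq2, 0 with a replicate block and 0 to 8 when 1 library was left out, 8 being without the library labelled KO 1 and 0 without WT 2, WT 3, KO 2 or KO 3. The count called higher was 0 and became 1 (Col6a5) with DESeq2. The labels do not say whether replicate numbers pair libraries. Deviations of same-numbered libraries correlated at -0.17, -0.02 and 0.05 across genes, within the range of differently numbered ones (-0.19 to 0.19). These correlations cannot decide whether a pairing exists. With the block the adjusted p of Col8a1 was 0.0606 in edgeR. Over 13 alternatives, Col8a1 ranged from -1.65 to -1.46 (adjusted p 3.46e-24 to 0.0967). The median over tested chains was -0.40 to -0.25. Of 260 values of the 20 chains described by library, 255 kept their direction. The exceptions were Col3a1 at 0.0013 with library size alone, and Col1a2, which ran from -0.030 to 0.081 with 1 library left out. Scaling by library size alone raised the median of all genes by 0.12 and left 21 of 35 chains below 0. Chains under 1 CPM, with few counts per library, have wide errors.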
